A study of Tetranychus cinnabarinus with 8 samples.

Results

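Among the gene models of the mite, 37 were chosen by their values in the solvent libraries, where their transcripts were more abundant at 48 h than at 24 h after spraying with the solvent alone. A gene was a member when the lower of the 2 solvent libraries at 48 h was at least 1.5 times the higher of the 2 solvent libraries at 24 h, in CPM, that is, reads estimated on the gene for each 1000000 reads estimated on all genes of the library. Members also had to be longer than the shortest gene models listed in any library, to hold 50 or more estimated reads in each of the 8 libraries, to have a mean RPKM under 1000 in solvent, and to differ from every other gene model in length or reads. Of 15764 gene models listed, 7940 met the last 4 conditions, and 37 of these met the first, which is 0.466% of them. In the other direction, 46 of the 7940 genes (0.579%) were at least 1.5 times lower at 48 h in solvent.

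The libraries came from pools of live female adults of the carmine spider mite, Tetranychus cinnabarinus, of a susceptible strain reared on cowpea, given in the labels as 2-day old. Leaves carrying the mites were sprayed with curcumin at 2.64 mg/mL in water with Tween 80 and acetone, or with this solvent alone, and those still alive were collected after 24 h or 48 h, with 2 biological replicates for each of the 4 groups. Only survivors were sequenced, in both arms, and reads were placed on the genome of a sister species, T. urticae. Nothing in the sources says how the collections at 24 h and 48 h were handled apart from their time, so the hours after spraying, the age of the females and the day of collection cannot be told apart. In pools of whole mites, fewer cells of a kind and less RNA per cell cannot be told apart either.

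As background, a young female spider mite pierces leaf cells, feeds on their content and begins to lay eggs soon after the last moult. Yolk protein precursors, the vitellogenins, are made in quantity by egg-laying females. The control libraries show how transcripts move with time when no curcumin is given, against which the same genes can be read in the curcumin libraries.

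Reads estimated on genes ranged from 8033325 to 8617973 per library, and the shortest gene model listed had 140 bp or more in 6 of them, and 131 and 132 bp with curcumin at 48 h. Vitellogenin 1 (tetur39g00730), the egg-related gene named in the study's tables, had 3.91 and 3.15 CPM in solvent at 24 h, 44.8 and 21.2 in solvent at 48 h, 11.7 and 18.1 in curcumin at 24 h and 5.23 and 5.15 in curcumin at 48 h. It was not a member because 4 libraries held fewer than 50 reads, and 34 gene models of this kind met the ratio in solvent but had too few reads in some library. It moved with the members in solvent and went the other way in curcumin. Its RPKM lay between 1.59 and 23.9 in the 8 libraries. Whether this gene marks egg-forming females here, and its part in the results, was not tested.

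The deposited files do not pair gene identifiers with protein names. The study's lists of changed genes hold 190 genes, of which 35 carry a protein name, and 23 and 6 of these, respectively, met the conditions other than the ratio. One member, tetur10g01920, is on these lists, as a hypothetical protein placed under the terms binding, catalytic activity and metabolic process, and 0 members carry a name. Of the 7 genes listed for protein processing in the endoplasmic reticulum, 5 met the conditions and 0 were members. The members are therefore described by their identifiers, lengths and values.

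In the solvent libraries the fold of mean CPM, 48 h over 24 h, ran from 1.56 to 4.42 over the members with a median of 2.02, whereas its median over the 7940 genes was 0.951. These values chose the members and are given as a description. The ratio of the lower 48 h to the higher 24 h library had a median of 1.69, and 9 members reached 2. Replicate solvent libraries differed in the members by a median of 1.09 times at 24 h and 1.11 times at 48 h, and by at most 2.14 times.

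The largest ratio belonged to tetur04g04350, a gene model of 1747 bp. Its CPM was 9.39 and 8.63 in solvent at 24 h, 34.9 and 44.9 in solvent at 48 h, 24.0 and 20.2 in curcumin at 24 h and 37.2 and 59.8 in curcumin at 48 h. In both treatments the 48 h libraries lay above the 24 h libraries without overlap, but the curcumin mites already stood above the solvent mites at 24 h.

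Next came tetur31g00280, of 1588 bp, with 6.14 and 11.2 CPM in solvent at 24 h and 37.5 and 35.1 in solvent at 48 h. In curcumin it had 8.32 and 9.57 CPM at 24 h and 22.3 and 25.2 at 48 h. This was the largest fold of any member in curcumin, 2.65, beside 4.19 in solvent. With 52.1 reads in its lowest library, it is also among the members counted least deeply.

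At the lower edge, tetur23g01640 (ratio 1.51), tetur30g01790 (1.52) and tetur10g00730 (1.53) were the last to be included. The closest genes left out were tetur04g07260, tetur12g00010 and tetur04g06630, each with a ratio of 1.48. Their folds of mean CPM in solvent, 1.59, 1.88 and 1.71, were as large as those of the members just inside, 1.57, 1.56 and 1.93, so the limit separates no distinct group.

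**Figure D1:**
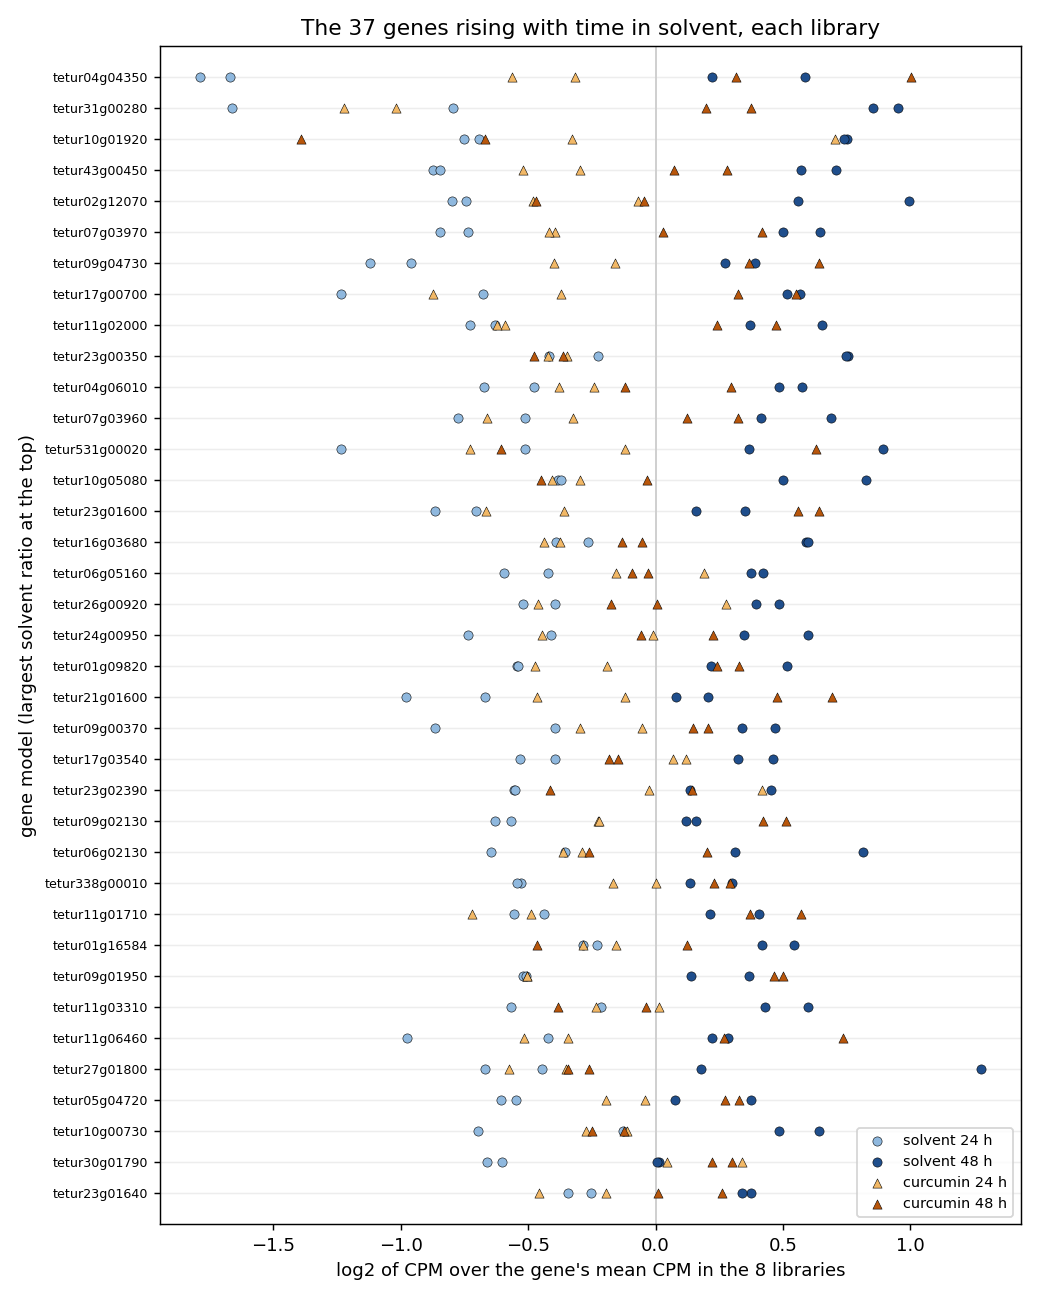
Each row is 1 of the 37 members, ordered by its solvent ratio, and each point is 1 library, placed by the log2 of its CPM over the mean CPM of the gene in all 8 libraries (circles, solvent; triangles, curcumin; pale, 24 h; dark, 48 h). The dark circles stand to the right of the pale circles in every row because the rule chose the genes so, while the dark triangles stand to the right of both pale triangles in 23 rows.

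The same genes were then read in the 4 curcumin libraries, whose change with time the rule did not use. The members were higher at 48 h than at 24 h in curcumin as well, though by less. The fold of mean CPM in curcumin had a median of 1.33 over the members, with a range from 0.416 to 2.65, against a median of 0.998 over the 7940 genes. Mean CPM was higher at 48 h for 30 of the 37 members, where 49.7% of the 7940 genes were higher. In 23 members, or 62.2%, both 48 h libraries lay above both 24 h libraries, while this held for 23.2% of the 7940 genes. The criterion that chose the members in solvent, a ratio of at least 1.5, was met in curcumin by 10 of them, or 27.0%, beside 0.491% of the 7940 genes. The reverse ratio, 24 h at least 1.5 times above 48 h, was met by 0 members and by 0.806% of the 7940 genes.

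From the other side, 39 of the 7940 genes met the ratio in curcumin, and the 10 members are 25.6% of them. The members among them were higher without overlap in solvent by the rule itself. Of the other 29 genes, 9 (31.0%) were higher at 48 h without overlap in solvent, where 14.6% of the 7940 genes were. The 2 comparisons share no library. The change in solvent was the larger of the pair for 33 of the 37 members, as the rule picked genes for a large value there. Over the members, the log2 ratios in solvent and in curcumin had a Spearman correlation of 0.2523, a description over 37 genes measured in the same libraries, and over the 7940 genes it was 0.2274.

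**Figure D2:**
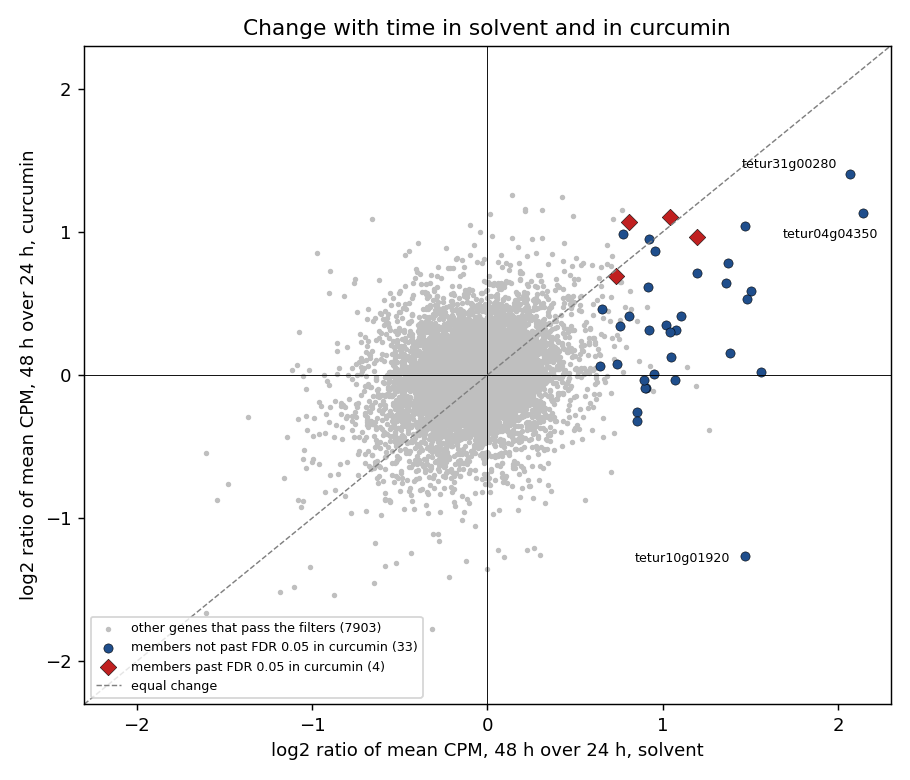
The log2 ratio of mean CPM, 48 h over 24 h, in the solvent libraries (horizontal) and the curcumin libraries (vertical) is shown for the 37 members (blue, and red diamonds where edgeR called them in curcumin) and the other genes that met the filters (grey). Of the members, 30 lie above 0 on the vertical axis and 33 lie below the dashed line of equal change.

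**Figure D3:**
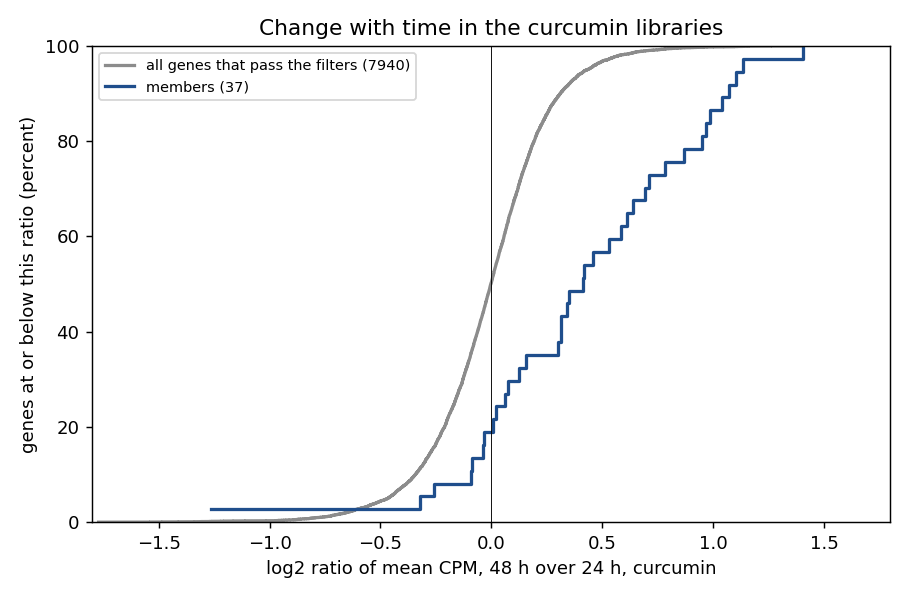
The curves give the percent of genes at or below each log2 ratio of mean CPM, 48 h over 24 h, in the curcumin libraries, for the 37 members (blue) and all 7940 genes that met the filters (grey). The median is 0.41 for the members and 0.00 for all genes.

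By the quasi-likelihood test of edgeR over 12227 genes, 4 of the 37 members rose from 24 h to 48 h in curcumin at an FDR of 0.05, and 0 fell. The fit took the spread of each gene from all 8 libraries, so the solvent libraries that chose the members entered the test in this way. Over all genes tested, 21 rose (0.172%) and 31 fell (0.254%), and among the 7940 genes that could have been members 10 rose (0.126%) and 26 fell (0.327%). At an unadjusted p under 0.05 by edgeR, 19 members were higher and 2 were lower, where 6.35% and 6.42% of all genes tested and 7.17% and 6.99% of the 7940 genes were. DESeq2 called 12 members higher, the 4 called by edgeR among them, and 1 lower, where it called 0.593% and 0.87% of all genes tested and 0.655% and 1.07% of the 7940 genes.

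The call with the smallest p was tetur11g02000, a gene model of 1661 bp. It had 28.0 and 30.0 CPM in solvent at 24 h, 60.0 and 73.0 in solvent at 48 h, 30.8 and 30.1 in curcumin at 24 h and 54.8 and 64.4 in curcumin at 48 h. Both treatments started and ended at similar levels, and the groups of 24 h and 48 h did not overlap in either. Its log2 fold change in curcumin was 0.98 with a standard error of 0.12 (edgeR, adjusted p = 0.0217).

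Another was tetur11g01710, on the same numbered scaffold, with 947 bp. Its CPM was 43.8 and 47.6 in solvent at 24 h, 85.4 and 74.7 in solvent at 48 h, 39.1 and 46.0 in curcumin at 24 h and 95.8 and 83.3 in curcumin at 48 h. The log2 fold change in curcumin was 1.09 (standard error 0.15, edgeR, adjusted p = 0.0274), and the fold of mean CPM was 2.10, beside 1.75 in solvent. This is 1 of only 4 members whose change was larger in curcumin than in solvent.

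tetur23g01600, of 1002 bp, was the most abundant of the genes called, at a mean of 128 RPKM. It had 116 and 104 CPM in solvent at 24 h, 241 and 211 in solvent at 48 h, 147 and 119 in curcumin at 24 h and 295 and 278 in curcumin at 48 h. The curcumin mites lay above the solvent mites at both times. In curcumin it rose by 1.12 on the log2 scale (standard error 0.16, edgeR, adjusted p = 0.028).

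The fourth was tetur09g02130, of 1042 bp, with 32.5 and 34.0 CPM in solvent at 24 h, 56.1 and 54.7 in solvent at 48 h, 43.0 and 43.1 in curcumin at 24 h and 71.8 and 67.4 in curcumin at 48 h. Replicates lay close together in every group, and the step from 24 h to 48 h was nearly the same in both treatments. Its log2 fold change in curcumin was 0.71 (standard error 0.12, edgeR, adjusted p = 0.0477).

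These 4 calls do not hold in every setting. In a fit of only the 4 curcumin libraries, which leaves out the solvent libraries, tetur11g01710, tetur11g02000, tetur23g01600 and tetur31g00280 were called. In that fit tetur09g02130 was not called. The share of all genes called in that fit is not given here, so its calls among the members stand without a background. By limma on the log2 RPKM values 0 members were called. Leaving out 1 curcumin library at 24 h, whichever it was, also left 0 calls, as did leaving out the second replicate of curcumin at 48 h, and without the first replicate only tetur04g04350 was called. Without 1 or the other solvent library at 24 h the calls were tetur11g02000 and tetur31g00280, and with no filter on low counts they were tetur11g02000 and tetur11g01710. The estimates moved less than the calls. Over the alternatives run, the log2 fold changes of the 4 genes in curcumin stayed between 0.63 and 1.28.

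The other 6 members with a ratio of at least 1.5 in curcumin were tetur04g04350 and tetur31g00280, described above, and tetur17g00700, tetur21g01600, tetur09g01950 and tetur11g06460. Their adjusted p by edgeR lay between 0.0515 for tetur31g00280 and 0.105 for tetur11g06460. In tetur09g01950, of 2049 bp, the curcumin libraries held 11.2 and 11.2 CPM at 24 h and 21.9 and 22.5 at 48 h, and the solvent libraries 11.1 and 11.2 at 24 h and 20.5 and 17.5 at 48 h. The 4 libraries of 24 h were nearly equal, and the 4 libraries of 48 h all lay above them.

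tetur17g00700, of 1157 bp, had 14.3 and 20.3 CPM in curcumin at 24 h and 38.4 and 32.8 at 48 h, beside 11.1 and 16.4, then 38.8 and 37.5 in solvent. For tetur21g01600 the values were 16.6 and 21.2, then 37.2 and 31.9 in curcumin, and 14.4 and 11.6, then 26.5 and 24.3 in solvent. tetur11g06460 had 17.9 and 20.2, then 30.9 and 42.7 CPM in curcumin, and 19.1 and 13.0, then 29.9 and 31.2 in solvent. All 10 genes of this kind roughly doubled in the curcumin libraries, with folds of mean CPM between 1.62 and 2.65.

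**Figure D4:**
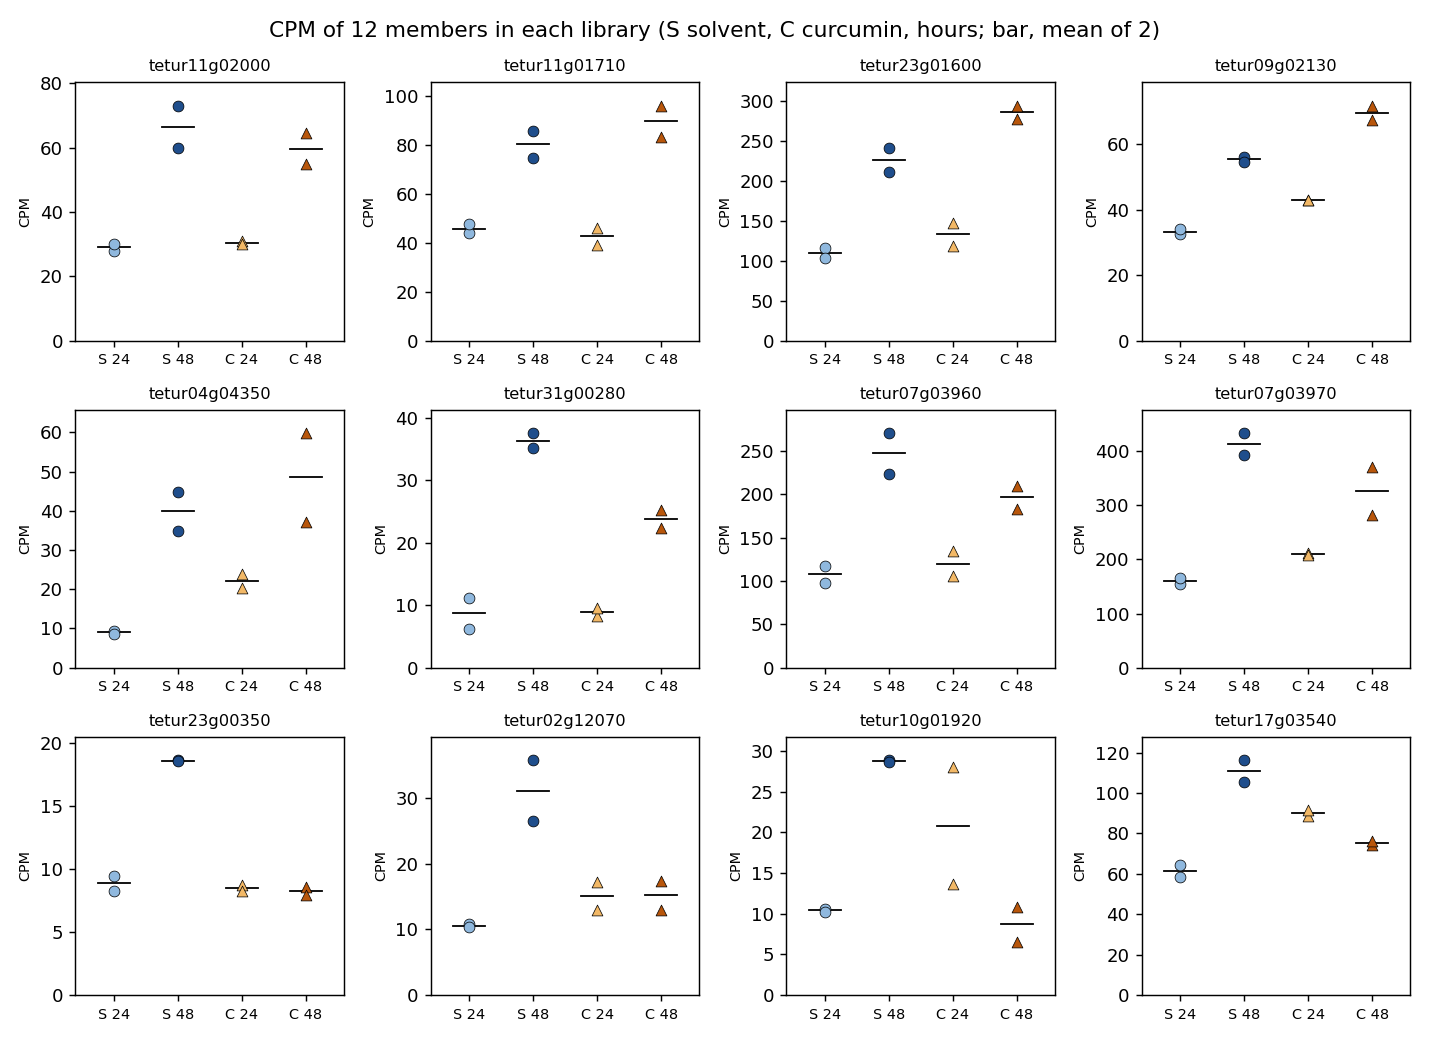
CPM of 12 members in each library (S, solvent; C, curcumin; 24 and 48, hours), with the mean of the 2 libraries as a bar and the axis starting at 0. The top row holds the 4 genes called by edgeR in curcumin. The middle row holds 2 genes with the largest solvent ratios and the neighbouring pair tetur07g03960 and tetur07g03970. The bottom row holds 4 genes whose curcumin libraries at 48 h did not both lie above both of those at 24 h.

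In 13 members the curcumin libraries at 48 h also lay above those at 24 h without overlap, but by a ratio under 1.5. With the 10 members above they make up the 23 (62.2%) that were higher without overlap, beside 23.2% of the 7940 genes. The median log2 ratio of the 13 in curcumin was 0.42, against 1.08 in solvent. The 13 include tetur04g06010 and tetur07g03970, which with the short tetur17g03540 had the highest mean RPKM of the members.

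tetur04g06010, of 546 bp, was the most abundant member at a mean of 485 RPKM. It had 241 and 276 CPM in solvent at 24 h, 572 and 538 in solvent at 48 h, 295 and 324 in curcumin at 24 h and 354 and 472 in curcumin at 48 h. In curcumin the libraries at 48 h differed from each other more than the lower one differed from 24 h. The log2 fold change there was 0.42 (standard error 0.16, edgeR, adjusted p = 0.314), not past the threshold.

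tetur07g03960 and tetur07g03970 are the only members that follow each other among the listed identifiers of a scaffold. tetur07g03960, of 806 bp, had 98.1 and 117 CPM, then 223 and 270.5 in solvent, and 106 and 134, then 183 and 209.9 in curcumin. tetur07g03970, of 753 bp, had 154 and 166, then 392 and 433 in solvent, and 211 and 207, then 282 and 369.9 in curcumin. Both were higher at 48 h in every comparison of libraries, by folds of 2.29 and 2.57 in solvent and 1.64 and 1.56 in curcumin, with adjusted p by edgeR of 0.0809 and 0.0913 in curcumin. Whether the estimated reads of the pair are shared between similar copies cannot be seen in the files.

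tetur43g00450 and tetur09g04730 had large ratios in solvent and moved less in curcumin. tetur43g00450, of 792 bp, had 30.5 and 31.1, then 91.3 and 83.0 CPM in solvent, and 45.4 and 38.9, then 58.8 and 67.8 in curcumin. tetur09g04730, of 585 bp, had 14.1 and 15.8, then 40.4 and 37.1 in solvent, and 23.4 and 27.6, then 39.7 and 48.0 in curcumin. In curcumin both began above the solvent level of 24 h. By edgeR their log2 fold changes in curcumin were 0.60 and 0.79, with adjusted p of 0.131 and 0.0758.

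In one gene of this class the solvent libraries at 48 h were far apart. tetur27g01800, of 1467 bp, had 18.6 and 21.7 CPM in solvent at 24 h, 33.5 and 71.8 at 48 h, and between 19.8 and 24.7 in the 4 curcumin libraries. Both lay above the 24 h libraries, but they differed by 2.14 times, the most of any member in solvent at that time.

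For the other 7 members of the class, tetur16g03680, tetur01g09820, tetur09g00370, tetur06g02130, tetur338g00010, tetur05g04720 and tetur23g01640, the fold in curcumin lay between 1.24 and 1.53, and the fold in solvent between 1.57 and 2.11. The longest member, tetur01g09820, of 5653 bp and a mean of 2.31 RPKM, had 13.4 and 13.4 CPM, then 27.9 and 22.6 in solvent, and 14.0 and 17.1, then 24.5 and 23.1 in curcumin. It had an adjusted p of 0.224 by edgeR in curcumin. Another gene of low level, tetur16g03680, had 6.71 and 7.33, then 13.3 and 13.3 in solvent, and 6.51 and 6.79, then 8.05 and 8.49 in curcumin.

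In curcumin 23.2% of the 7940 genes were higher at 48 h without overlap, 23.9% were lower, and in the rest the 2 times overlapped. Among the members the curcumin libraries of the 2 times overlapped in 12, with a median log2 ratio of 0.01 in curcumin beside 0.93 in solvent. The clearest case is tetur23g00350, of 2264 bp, with 8.27 and 9.46 CPM in solvent at 24 h, 18.6 and 18.6 in solvent at 48 h, 8.70 and 8.25 in curcumin at 24 h and 8.60 and 7.95 in curcumin at 48 h. All 4 curcumin libraries stood at the solvent level of 24 h. Its log2 fold change in curcumin was -0.03 with a standard error of 0.20 by edgeR, which does not show that the gene was constant.

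tetur02g12070, of 1203 bp, went from 10.8 and 10.3 to 35.8 and 26.6 CPM in solvent, while in curcumin it had 12.9 and 17.2 at 24 h and 13.0 and 17.5 at 48 h. tetur10g05080, of 1446 bp, went from 65.5 and 66.0 to 151 and 121 CPM in solvent, and had 69.6 and 64.4, then 62.5 and 83.4 in curcumin. Both solvent libraries at 48 h stood above all other libraries in these genes. The same order held for tetur06g05160, with 75.7 and 73.4 CPM in solvent at 48 h and 37.4 to 64.6 in the other 6 libraries, and for tetur10g00730, with 65.2 and 58.5 against 25.8 to 38.7.

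tetur531g00020, of 303 bp, was scattered in all groups, with 25.3 and 41.8, then 111 and 76.9 CPM in solvent, and 35.9 and 54.8, then 92.1 and 39.1 in curcumin. Its standard error in curcumin was 0.41 on the log2 scale, the largest of the members. The remaining genes of the class were tetur26g00920, tetur24g00950, tetur23g02390, tetur01g16584, tetur11g03310 and tetur30g01790. Their folds of mean CPM in curcumin ran from 0.80 to 1.23, and those in solvent from 1.56 to 2.06. tetur30g01790, of only 174 bp, had 23.4 and 24.4 CPM in solvent at 24 h and 37.2 to 46.9 in the other 6 libraries, so it was set apart by the solvent libraries at 24 h.

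Just 2 members were lower at 48 h than at 24 h in curcumin without overlap, where 23.9% of the 7940 genes were. tetur10g01920, of 815 bp, had 10.6 and 10.2 CPM in solvent at 24 h, 28.9 and 28.6 in solvent at 48 h, 28.0 and 13.7 in curcumin at 24 h and 6.53 and 10.8 in curcumin at 48 h. The curcumin libraries at 24 h differed by 2.05 times. Its log2 fold change in curcumin was -1.25 with a standard error of 0.33 (edgeR, adjusted p = 0.168), and DESeq2 called it lower. The estimate was -0.64 without the first curcumin library at 24 h, which held 28.0 CPM, and -1.68 without the second.

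tetur17g03540 is the shortest member, at 159 bp, close to the shortest gene models listed. It had 64.2 and 58.5 CPM in solvent at 24 h, 106 and 116 in solvent at 48 h, 88.6 and 91.7 in curcumin at 24 h and 74.5 and 76.3 in curcumin at 48 h. The log2 fold change in curcumin was -0.25 (standard error 0.11, edgeR, adjusted p = 0.378). The shortest gene model listed differed between libraries, from 131 bp upward, and the part of this length limit in the result was not tested.

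Placed by library, the medians over the members fell in one order, which single members did not all share. In curcumin the times overlapped in 12 members and 48 h was lower without overlap in 2. The rule chose low values in solvent at 24 h and high values in solvent at 48 h, so the order is a description. The median over members of the log2 of CPM over the gene's own mean was lowest in solvent at 24 h, at -0.64 and -0.54, followed by -0.38 and -0.28 in curcumin at 24 h, 0.14 and 0.26 in curcumin at 48 h and 0.41 and 0.48 in solvent at 48 h. Over the 7940 genes the same median stayed between -0.10 and 0.05. Together the 37 genes took 1607 and 1709.8 CPM in solvent at 24 h and 3498 and 3541 in solvent at 48 h, and 1998 and 2103 CPM in curcumin at 24 h and 2741 and 3058 at 48 h.

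Both curcumin libraries at 24 h stood above both solvent libraries of that time for 20 members and below both for 0, where 15.6% and 31.5% of the 7940 genes did so. At 48 h both curcumin libraries stood below both solvent libraries for 21 members and above both for 5, where 15.4% and 17.2% of the 7940 genes did so. The solvent libraries in these comparisons are those that chose the members for low values at 24 h and high values at 48 h, so the counts are a description with no test. In 30 members both curcumin libraries at 48 h stood above both solvent libraries at 24 h, as in 18.4% of the 7940 genes.

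The members were not alike in length or level. Their median length was 1042 bp, with a range from 159 to 5653 bp, beside 1552.5 bp for the 7940 genes. Their mean RPKM ran from 2.31 to 485 with a median of 22.1, beside 17.2. The lowest number of reads in any library had a median of 199 over the members and 261 over the 7940 genes, so that the members were not measured more deeply than other genes.

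By their identifiers they lie on 21 numbered scaffolds, of which 9 hold 2 or more members and 1 holds 4. Of 32 neighbouring genes that met the filters and were no members, 6 (18.8%) were higher at 48 h in solvent without overlap, beside 14.6% of the 7940 genes, and the median fold of the 32 in solvent was 0.983. Of 36 neighbours outside the filters, 1 met the ratio in solvent, tetur06g02140, next to tetur06g02130. It had 5.32 and 6.78, then 10.98 and 15.37 CPM in solvent, with 45.2 reads in its lowest library. The neighbours tetur09g04740 and tetur24g00960 were at 0 in both solvent libraries at 24 h, so no ratio could be formed. In solvent at 48 h they had 0.751 and 0.761 CPM, and 0.158 and 0.233 CPM, respectively. Among those that met the filters, the nearest to the rule was tetur04g06000, next to tetur04g06010, with 179 and 225 CPM in solvent at 24 h and 333 and 323 at 48 h. tetur17g03550, next to tetur17g03540, had a fold of 1.58 in solvent and 0.811 in curcumin, beside 1.81 and 0.836 for its neighbour.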

How the data were processed

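RNA-Seq libraries were made from poly(A) RNA of pooled mites, 8 in all, with 2 biological replicates in each of 4 groups of treatment and time. The authors filtered single-end Ion Proton reads and aligned them by T-Map to the genome of T. urticae, with 3 mismatches or fewer, and deposited estimated counts (expected counts of reads, not whole numbers) for each gene model. The authors also deposited RPKM, reads scaled by exon length and by mapped reads. For the read estimator and the version of the gene models, nothing was given in the sources used here. Genes not listed for a library were taken as 0.

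CPM was computed from the sum of estimated reads of each library. The same reads were rounded and tested across all genes with edgeR (version 4.0.16, R 4.3.3), using filterByExpr, TMM scaling, 1 fit of 4 groups over 8 libraries and the robust quasi-likelihood test, with Benjamini-Hochberg adjustment and an FDR of 0.05. This left 12227 genes and 4 residual degrees of freedom. The test itself gives no standard error. Those printed with edgeR are the absolute log2 fold change over the square root of its F statistic. The scripts were tested on simulated data with 200 changed genes, changed 2 or 4 times in equal numbers. There edgeR recovered 55 of those changed 2 times and 86 of those changed 4 times, with 12 false calls. DESeq2 (1.42.0), limma (3.58.1) on log2(RPKM + 1) and log2(RPKM + 0.1) above a mean RPKM of 0.5, other limits in the rule and each library left out in turn were alternatives. Only the contrast of curcumin at 48 h against 24 h was tested, because the solvent libraries had chosen the members. The spread in this test still came from a fit that held the solvent libraries. Every member is named, with the genes just outside the limit, some genes next to members and vitellogenin 1. The members and lists were chosen with earlier results of these data known. Replicates were separate experiments in the study's methods, and read totals of 8033325 to 8617973 per library limit the precision of genes near 50 reads. No sequences were used here, and the protein names given are those of the study's own lists and tables.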

Additional observations from a re-analysis of the deposited data

Results flagged for a closer look

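A pair of members went in opposite directions in the solvent and curcumin libraries. tetur10g01920 was higher in both solvent libraries at 48 h than in both at 24 h, with a fold of mean CPM of 2.77, and lower in both curcumin libraries at 48 h, with a fold of 0.416. tetur17g03540 was likewise higher in both solvent libraries at 48 h (fold 1.81) and lower in both curcumin libraries at 48 h (fold 0.836). The solvent values chose these genes, so the difference between treatments was not tested. By edgeR the adjusted p in curcumin was 0.168 for tetur10g01920, with a range of 0.0373 to 0.646 over the alternatives and log2 fold changes from -1.68 to -0.64, and 0.378 for tetur17g03540, with a range of 0.343 to 0.830.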

How the results depend on the processing

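The number of members depended on the limits of the rule. It was 117 at a lower limit for the ratio, 9 at a ratio of 2 and 64 with a minimum of 20 reads, against 37, and 48 or 49 with TMM or DESeq2 scaling, which shifted the median of all genes by less than 0.1 on the log2 scale. In curcumin 11 of the 117 and 4 of the 9 reached a ratio of 1.5. Leaving out 1 curcumin library gave 11 to 13 members at that ratio, 23 to 30 without overlap and a median log2 ratio of 0.33 to 0.48. Both counts can only stay or rise when a library is left out, as they can for any set of genes. Shares of the 7940 genes are not given for these settings, so the counts cannot show that the result is stable.

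Against 4 members and 52 genes called in curcumin by edgeR, DESeq2 called 12 members higher, 1 lower and 185 genes. With no filter on low counts it was 2 members and 22 genes, by limma 0 members with either pseudocount and 32 genes (1) or 24 genes (0.1), and 19 genes with short models left out and equal models once. At an FDR of 0.001 with a log2 fold change of 1 it was 0 and 0. Leaving out 1 library gave 0 to 5 members higher, 0 lower and 0 to 64 genes, lowest without a curcumin library. The replicate block gave 6 members and 72 genes, adding tetur31g00280 (edgeR, adjusted p = 0.0494) and tetur07g03960 (0.0374). Whether equal numbers mark a shared experiment is not given in the labels, and same-numbered libraries had correlations of deviations from -0.0875 to 0.164, so they were not treated as pairs.

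Of the estimates for single members, 522 kept direction and side of the threshold, 34 lost the call, 17 gained it and 19 changed sign, all of these near 0 or scattered. By limma with a pseudocount of 1 or 0.1, tetur02g12070 was at -0.018 and -0.020 and tetur10g00730 at -0.031 and -0.032. Without 1 library the log2 fold change ran from -0.17 to 0.24 for tetur02g12070, -0.12 to 0.047 for tetur23g00350, -0.22 to 1.05 for tetur531g00020, -0.069 to 0.305 for tetur10g05080, -0.23 to 0.10 for tetur06g05160, -0.34 to 0.38 for tetur26g00920, -0.22 to 0.33 for tetur01g16584, -0.29 to 0.10 for tetur11g03310, -0.071 to 0.10 for tetur10g00730 and -0.059 to 0.22 for tetur30g01790. The cause was not tested.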
